A study of Mus musculus with 24 samples.

Results

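The genes described here are the nuclear genes of the mitochondrial respiratory chain and ATP synthase, complexes I to V. They were taken by symbol: every gene named Nduf, Sdha to Sdhd, Uqcr, Cox4 to Cox8 or Atp5 that a probeset of the array annotation listed as its single gene. The rule found 89 of the 19938 genes measured: 41 of complex I, 4 of complex II, 8 of complex III, 19 of complex IV and 17 of complex V. Where a gene had several probesets, as 17 of the 89 did, the one with the highest mean was used. The arrays measured total RNA from cell suspensions of subcutaneous B16 tumours, a mouse melanoma line, in 24 arrays of 6 groups with 4 biological replicates each. All mice, aged 6 to 12 weeks, were injected subcutaneously with 500000 of these cells. The Mock and IL-12TD arms were irradiated with 5 Gy to the whole body 10 to 14 days later and given 100000 pmel-1 CD8+ T cells, whose receptor recognises the melanocyte protein gp100. These T cells were either un-transduced (the Mock arm) or transduced to make interleukin-12 (the IL-12TD arm). The labels of the untreated arm give no irradiation and no T cells. Tumours were taken at day 3 and day 7, and for the Mock arm at day 7 one label gives day 3 while the others give day 7, which was used. Labels give no scan or extraction date, so day and any batch that goes with it cannot be told apart.

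Complex I takes electrons from NADH, complex II takes them from succinate, and both pass them through ubiquinone to complex III, cytochrome c and complex IV, which reduces oxygen. Complexes I, III and IV pump protons across the inner mitochondrial membrane, and complex V uses the gradient to make ATP. Complex I is built from core subunits that carry its flavin and iron-sulphur centres and from supernumerary subunits that surround them. In macrophages, interferon-gamma and microbial products are known to raise nitric oxide and itaconate, which act on complexes I, II and IV. By role, the 89 genes held 6 core and 28 supernumerary subunits and 7 assembly factors of complex I, and 10 general subunits, 8 tissue- or condition-restricted isoforms and the supercomplex factor Cox7a2l of complex IV. Complex V was represented by 5 genes of the catalytic F1 head and 12 of the membrane part and stalk. The 7 assembly factors and Cox7a2l are not chain subunits although their symbols meet the rule. Cox7c, Ndufb4 and Ndufb4b were listed only on probesets that name a second gene and are therefore not among the 89, and the subunits encoded by mitochondrial DNA were not analysed here.

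The respiratory chain genes were bright. Their mean log2 intensity over 24 arrays had a median of 8.29, against 5.49 over all genes, and 57 of the 89 (64%) lay in the brightest 1993 genes. Cox6c, Cox7b and Atp5d had the highest probeset means, at 12.17, 11.97 and 11.55. Cox7b2, Cox8c and Cox6b2, isoforms known from testis, had the lowest, at 3.91, 4.80 and 4.82, values that a probeset can give without transcript. Levels of different probesets are not comparable as amounts of RNA. Between groups the mean of a gene ranged over 0.23 to 2.04 log2 units (median 0.99), against a pooled SD between replicates of 0.11 to 0.40 (median 0.20). In the map of all 89 genes by array, the day 3 arrays of most genes lie above their day 7 arrays.

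**Figure D1:**
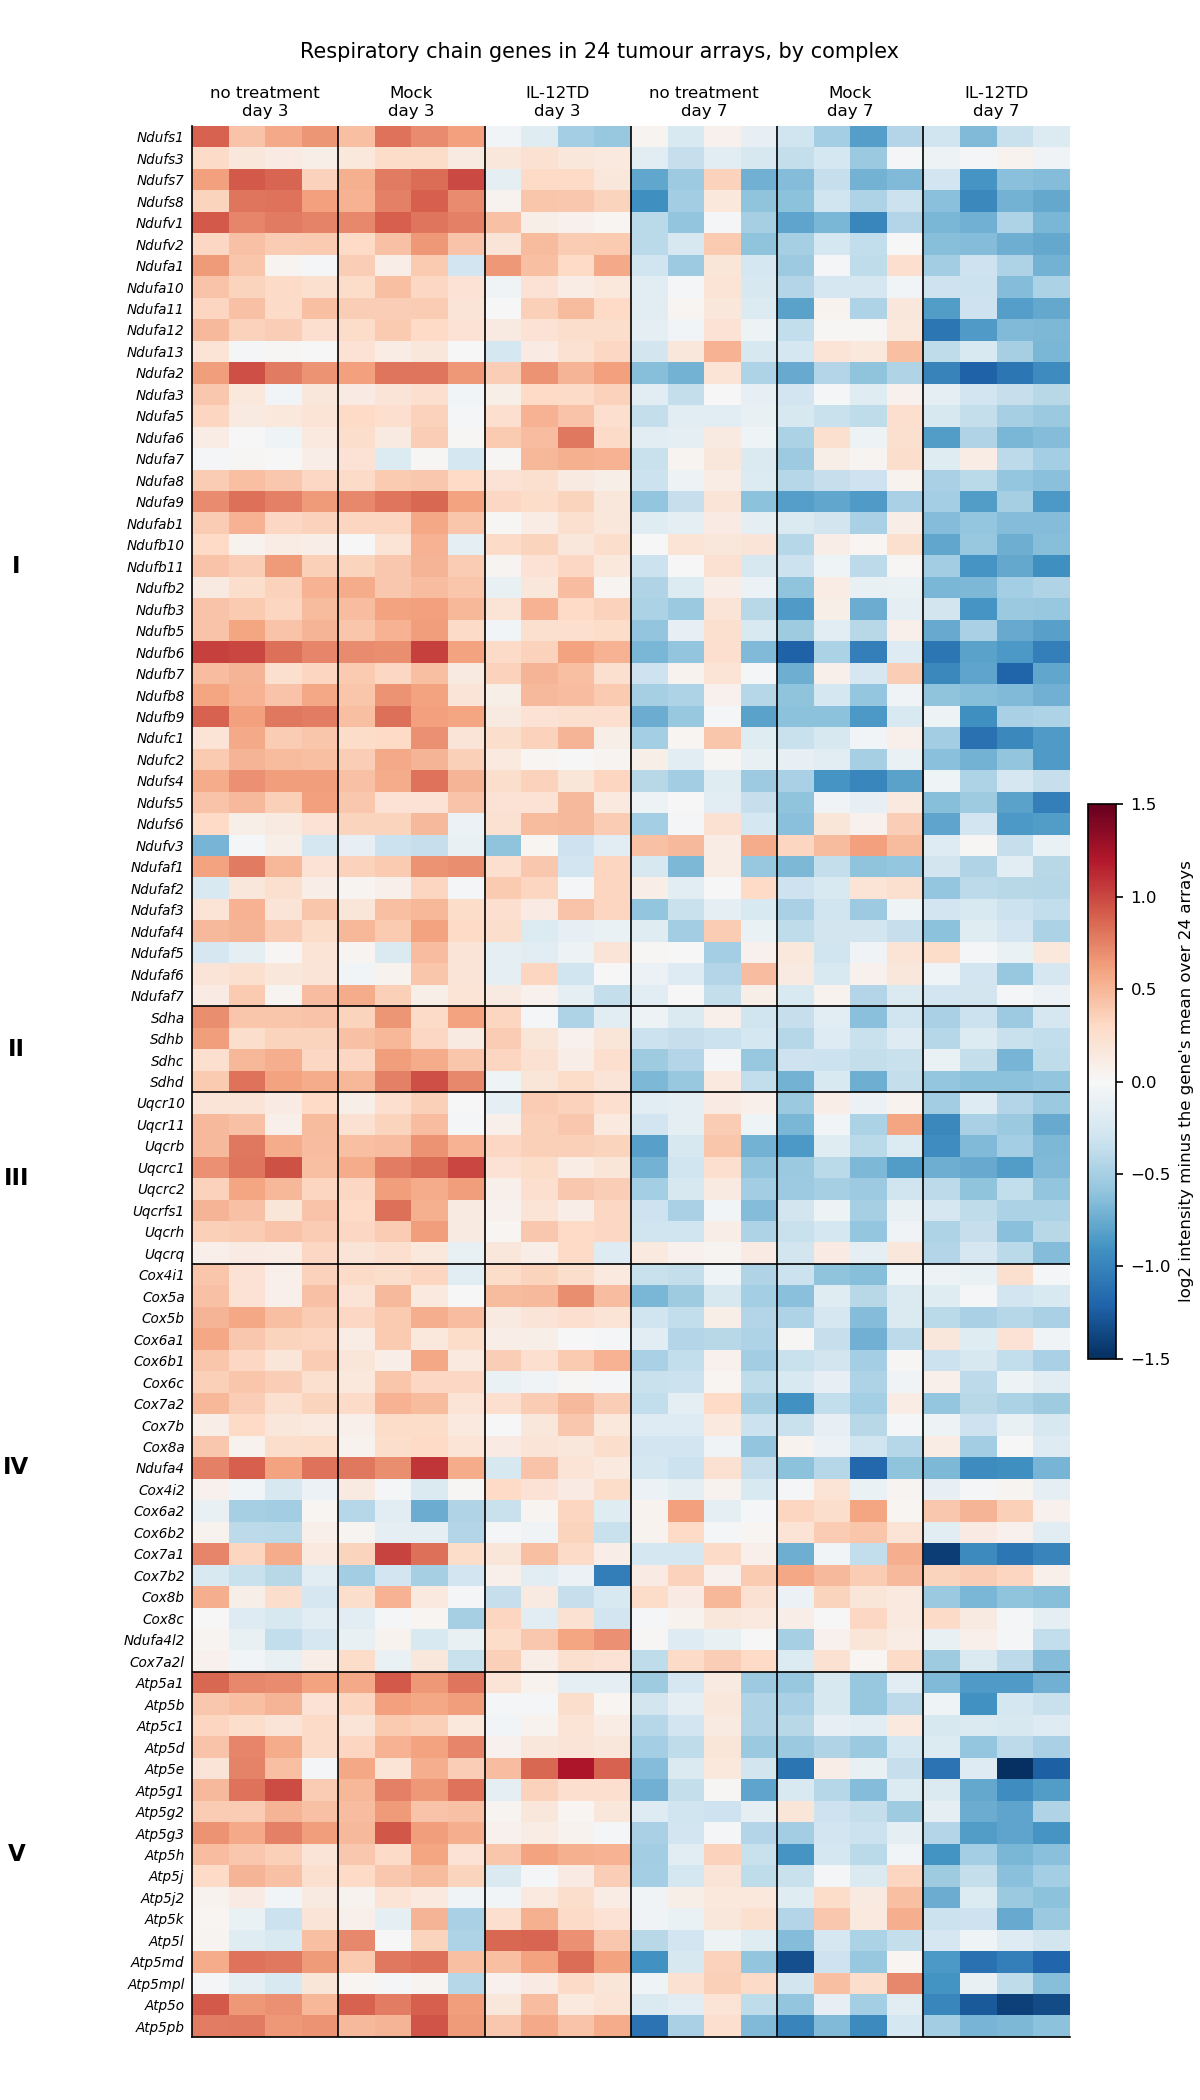
Log2 intensity of each of the 89 genes (rows, by complex I to V) minus the gene's mean over 24 arrays (columns, 4 replicates in each of 6 groups); red is above and blue below the mean. Most genes are red at day 3 and blue at day 7, Cox7b2 and Ndufv3 run the other way in several groups, and replicate 3 of the untreated day 7 group is paler than its 3 fellows.

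The series as a whole sets limits that touch several results. The width of the distributions of the 19938 genes differed between groups. Their interquartile range was on average 2.76 in both untreated and Mock tumours at day 3, 2.26 in IL-12TD tumours at day 3 and 2.22 to 2.45 in the day 7 groups. Because bright genes can move with that width, a second quantile normalization was run as an alternative. It makes the arrays' distributions over the 19938 genes alike. Its counts over the 89 genes are given beside those of the deposited values. Pan-leukocyte markers were higher in IL-12TD than in Mock tumours for 10 of 10 genes on both days (median log2 difference 1.66 at day 3 and 1.74 at day 7). Melanocyte markers were lower for 8 of 11 at day 3 (median -0.57) and for 1 of 11 at day 7 (median 0.19). In such bulk samples fewer cells of a type and less RNA per cell cannot be told apart. Skeletal muscle markers averaged 4.71 to 5.72 per array. No pair of arrays was identical among 276 pairs, and arrays of a group correlated at 0.962 to 0.992. A gene was called when limma, fitted to all genes and 6 groups, gave a Benjamini-Hochberg adjusted p under 0.05. Values are log2 intensities, differences are log2 differences with their standard error (SE), and arrays are listed in the order of replicates 1 to 4.

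RefSeq promoter windows (table of build GRCm38.p6, 250 bases before to 50 after the start) matched 73 of the 89 genes. These windows were searched on both strands for short cores of the motifs of factors known to act on respiratory chain promoters: GCATGCGC for NRF1, CCGGAAG for GABP and other ETS factors, and AAGATGGC for YY1. A gene was counted when any of its windows held the motif; the 73 genes had 1.07 windows each on average and the 27025 genes in all had 1.22. The NRF1 core was found in 12 of the 73 genes (16.4%), against 3.05% of all genes. The ETS motif was found in 18 (24.7%), against 9.93%, and the YY1 core in 10 (13.7%), against 3.19%. At least 1 of the 3 was present in 34 of 73 (46.6%), against 14.9%. A match is a description of these letters and not a site of binding. The 5 genes printed are ones that the results below turn on: Ndufv1 and Sdhd, lower in IL-12TD than Mock tumours at day 3; Ndufb7 and Atp5k, lower at day 7; and Cox6a1, higher at day 7. Each is the stretch of 250 bases before the start, read along the gene, with motif letters in capitals; the longer capital run in Atp5k and Cox6a1 holds the NRF1 core on both strands.
Ndufv1, chr19:4012756-4013005, minus strand: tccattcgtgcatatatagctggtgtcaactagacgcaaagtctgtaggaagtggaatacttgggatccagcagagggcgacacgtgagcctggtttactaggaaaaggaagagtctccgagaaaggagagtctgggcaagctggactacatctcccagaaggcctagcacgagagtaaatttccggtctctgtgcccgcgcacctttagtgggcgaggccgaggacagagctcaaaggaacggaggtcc
Sdhd, chr9:50603850-50604099, minus strand: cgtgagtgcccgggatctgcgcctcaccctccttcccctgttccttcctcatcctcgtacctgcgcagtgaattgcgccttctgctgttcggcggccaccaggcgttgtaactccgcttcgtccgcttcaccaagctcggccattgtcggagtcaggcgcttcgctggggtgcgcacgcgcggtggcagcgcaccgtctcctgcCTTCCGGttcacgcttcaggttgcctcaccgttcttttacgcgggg
Ndufb7, chr8:83566508-83566757, plus strand: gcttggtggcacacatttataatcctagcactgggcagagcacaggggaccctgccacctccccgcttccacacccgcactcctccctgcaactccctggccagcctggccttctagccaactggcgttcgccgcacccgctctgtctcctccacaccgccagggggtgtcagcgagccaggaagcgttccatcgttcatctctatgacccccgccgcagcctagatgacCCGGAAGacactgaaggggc
Atp5k, chr5:108434400-108434649, minus strand: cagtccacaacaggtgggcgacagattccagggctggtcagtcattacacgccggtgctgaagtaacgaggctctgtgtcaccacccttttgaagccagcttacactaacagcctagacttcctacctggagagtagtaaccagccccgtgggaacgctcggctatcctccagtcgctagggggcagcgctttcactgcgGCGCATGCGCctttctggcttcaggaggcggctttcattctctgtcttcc
Cox6a1, chr5:115348959-115349208, minus strand: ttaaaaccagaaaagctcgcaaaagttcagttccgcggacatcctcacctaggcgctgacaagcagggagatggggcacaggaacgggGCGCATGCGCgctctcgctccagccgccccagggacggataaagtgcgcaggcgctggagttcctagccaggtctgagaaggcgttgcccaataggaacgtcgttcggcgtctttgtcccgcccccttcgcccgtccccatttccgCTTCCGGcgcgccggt

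The window of Ndufv1 held none of the 3 motifs. The ETS motif began 46 bases before the start in Sdhd and 20 before it in Ndufb7. In Atp5k the NRF1 core lay 50 bases before the start, with an ETS motif in the part after the start that is not printed. Cox6a1 held the NRF1 core 162 bases and the ETS motif 16 bases before the start. Among genes lower at day 3 only, 7 of 14 with a window held at least 1 motif, and among those lower at day 7 only, 8 of 21 did. The gene Nrf1 itself was lower in IL-12TD than Mock tumours at day 3 (log2 difference -0.57, SE 0.14, adjusted p = 0.00164) and Gabpa, the DNA-binding part of GABP, also fell (-0.58, SE 0.13, adjusted p = 0.000859). At day 7 Nrf1 and Gabpa differed by -0.00 and -0.04, adjusted p = 0.99 and 0.841. Over all genes 25.9% were called lower at day 3. Both genes belong to a list of 16 regulators of mitochondrial biogenesis, of which 11 were lower at day 3. After a second quantile normalization 6 of the 16 were lower. A link between these regulators and the motif matches was not tested.

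The comparison of IL-12TD with Mock tumours sets T cells transduced to make interleukin-12 against un-transduced ones. Transduction and interleukin-12 cannot be told apart in it. At day 3, 23 of the 89 genes fell and 4 rose, with a median log2 difference of -0.16, but after a second quantile normalization 11 fell and 10 rose and the median was 0.03. Over all genes 25.9% were called lower and 17.3% higher, so the share of chain genes called lower was close to that of genes in general. The 1993 brightest genes, where most of the 89 lie, had 976 lower and 137 higher (median -0.34). By role, of the 6 complex I core subunits 4 fell (median -0.52), whereas 4 of 28 supernumerary subunits fell and 1 rose (median -0.09). In complex II 2 of 4 fell, in complex III 1 of 8, among the F1 genes of complex V 3 of 5, and in the membrane part and stalk 4 of 12, with 1 higher. In complex IV 3 of 19 fell and 2 rose, and 2 of 7 assembly factors of complex I fell. After the second quantile normalization 3 core subunits of complex I fell (median -0.29), 1 supernumerary subunit fell and 4 rose (median 0.13), and none of complex II, complex III or the assembly factors was called. In complex V 3 F1 genes fell, and 2 genes of the membrane part and stalk fell and 2 rose (median 0.09); in complex IV 2 fell and 4 rose.

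Ndufs1, a core subunit that carries iron-sulphur clusters of the NADH-oxidising arm, had the largest fall. It was 7.63, 7.99, 7.88 and 7.79 in Mock and 7.13, 6.99, 6.66 and 6.61 in IL-12TD tumours. The groups did not overlap, and the difference was -0.98 (SE 0.14, adjusted p = 4.9e-06), or 1.97-fold lower. Ndufv1, the subunit that binds NADH and the flavin, was 8.94, 9.12, 9.02 and 8.98 in Mock and 8.66, 8.31, 8.29 and 8.25 in IL-12TD tumours. Every IL-12TD array was below every Mock array (-0.64, SE 0.13, adjusted p = 0.000306). Ndufs7, an iron-sulphur subunit near the ubiquinone site, was 10.84, 11.09, 11.14 and 11.29 in Mock and 10.16, 10.60, 10.60 and 10.48 in IL-12TD tumours. Again the groups were apart (-0.63, SE 0.19, adjusted p = 0.00875). Ndufs8, another core iron-sulphur subunit, fell by 0.42 (SE 0.16, adjusted p = 0.0398). The core genes Ndufs3 and Ndufv2 differed by -0.03 and -0.09 and were not called.

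Of complex II, Sdhd, a membrane anchor, was 8.59, 8.84, 9.06 and 8.81 in Mock and 8.03, 8.27, 8.36 and 8.28 in IL-12TD tumours. Their ranges did not meet (-0.59, SE 0.15, adjusted p = 0.00284). Sdha, the flavoprotein that oxidises succinate, was 9.13, 9.46, 9.08 and 9.40 in Mock and 9.12, 8.76, 8.33 and 8.64 in IL-12TD tumours. Replicate 1 of the IL-12TD group lay within the Mock range (-0.55, SE 0.14, adjusted p = 0.00327). Sdhb and Sdhc, the iron-sulphur subunit and the other anchor, differed by -0.14 and -0.25 and were not called. Of complex III, Uqcrc1, a core protein, was 9.31, 9.52, 9.59 and 9.76 in Mock and 8.97, 9.03, 8.86 and 8.93 in IL-12TD tumours. All 4 IL-12TD arrays were lower (-0.60, SE 0.16, adjusted p = 0.00318). Uqcrc2 and the Rieske protein gene Uqcrfs1 differed by -0.25 and -0.28 and were not called. A second quantile normalization ended the calls of Sdha (-0.32), Sdhd (-0.34) and Uqcrc1 (-0.39).

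In complex V, Atp5a1, the alpha subunit of the F1 head, was 10.22, 10.57, 10.31 and 10.46 in Mock and 9.86, 9.71, 9.52 and 9.52 in IL-12TD tumours. Both groups were apart (-0.74, SE 0.14, adjusted p = 0.000125). Atp5b, the catalytic beta subunit, fell by 0.48 (SE 0.15, adjusted p = 0.0115), and Atp5c1, the gamma subunit, differed by -0.19 and was not called. The 3 genes Atp5g1, Atp5g2 and Atp5g3 encode the same c-ring protein, and all 3 fell, by 0.50, 0.39 and 0.59. Of the 3 probesets of Atp5g2, which ranged from -0.39 to -0.15, only 1 was called. The call of Atp5g1 was lost without Mock replicate 4 or IL-12TD replicate 1 (-0.46 and -0.40), and that of Atp5g2 without Mock replicate 2 or IL-12TD replicate 1 or 3 (-0.34 to -0.36) and after a second quantile normalization (-0.23). In the other direction, Atp5l, subunit g of the membrane part, was 8.70, 7.97, 8.32 and 7.52 in Mock and 8.84, 8.86, 8.67 and 8.39 in IL-12TD tumours. The groups overlapped, and the difference of 0.56 (SE 0.18, adjusted p = 0.0142) became 0.36 and lost its call without Mock replicate 4. Cox5a, a subunit of complex IV, rose by 0.32 (adjusted p = 0.0463). Its call was lost without Mock replicate 1, 3 or 4 or without any 1 of the 4 IL-12TD replicates (0.26 to 0.35). The supernumerary subunit Ndufa7 rose by 0.46 (adjusted p = 0.0279), a call lost without Mock replicate 2 or 4 or IL-12TD replicate 2, 3 or 4 (0.39 to 0.42).

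At day 7, again in IL-12TD against Mock tumours, 29 of the 89 genes fell and 3 rose (median -0.22), and a second quantile normalization gave 44 and 1 (median -0.39). Over all genes 8.83% were called lower and 12.9% higher, and the brightest 1993 genes had 283 lower and 449 higher (median 0.07). Supernumerary subunits of complex I made up 15 of the 29 falls, with 1 of 28 higher (median -0.42), whereas 1 of 6 core subunits (Ndufv2, -0.41) fell (median 0.03) and 1 of 7 assembly factors. In complex V 6 of 12 genes of the membrane part and stalk fell and 1 of 5 of the F1 head, in complex III 2 of 8, in complex IV 3 of 19 with 2 higher, and in complex II none of 4, nor was any of the 4 under an unadjusted p of 0.05. The second quantile normalization gave 20 lower supernumerary subunits (median -0.63), 2 core subunits, 10 genes of the membrane part and stalk, 2 of the F1 head, 5 of complex III and 4 of complex IV. The count of calls changed when single arrays were left out. It was 21 without Mock replicate 2, 19 without Mock replicate 4 and 20 without IL-12TD replicate 4. Calls over all genes fell in the same fits, from 1760 lower and 2573 higher with all arrays. They were 1112 lower and 1985 higher, 1224 and 2110, and 1034 and 1974 in that order. With array weights the count over the 89 genes was 44, and over all genes 4023 were then lower and 3924 higher.

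Ndufb7, a supernumerary subunit of the membrane arm, was 7.28, 8.09, 7.76 and 8.38 in Mock and 7.05, 7.22, 6.81 and 7.24 in IL-12TD tumours at day 7. The IL-12TD arrays were all lower, without overlap (-0.79, SE 0.16, adjusted p = 0.000792). Ndufa12, a supernumerary subunit of the peripheral arm, was 7.94, 8.32, 8.32 and 8.46 in Mock and 7.22, 7.46, 7.64 and 7.63 in IL-12TD tumours. The groups were apart without overlap (-0.77, SE 0.12, adjusted p = 2.32e-05). Ndufa6 fell by 0.64 and Ndufc1 by 0.72, and Ndufa6 overlapped with Mock while Ndufc1 did not. Ndufs4, a supernumerary subunit whose loss causes mitochondrial disease, went the other way. It was 8.17, 7.78, 7.68 and 7.86 in Mock and 8.59, 8.20, 8.41 and 8.32 in IL-12TD tumours. Every IL-12TD array was higher (0.50, SE 0.12, adjusted p = 0.00309), although at day 3 the same gene was 9.10, 9.22, 9.47 and 9.17 in Mock and 8.92, 9.01, 8.84 and 8.98 in IL-12TD tumours (-0.31, SE 0.12, adjusted p = 0.0409).

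Atp5o, the stalk subunit that joins the F1 head to the membrane part, was 7.63, 8.10, 7.72 and 8.07 in Mock and 7.25, 6.97, 6.83 and 6.88 in IL-12TD tumours at day 7. The groups did not overlap (-0.90, SE 0.14, adjusted p = 2.43e-05), as at day 3, when it fell by 0.55. Atp5mpl, a small protein of the membrane part, was 9.38, 10.10, 9.92 and 10.37 in Mock and 8.76, 9.54, 9.27 and 9.01 in IL-12TD tumours. Mock replicate 1 lay below IL-12TD replicate 2 (-0.80, SE 0.17, adjusted p = 0.0012). Atp5k, subunit e of the same part, fell by 0.65 (SE 0.19, adjusted p = 0.0132). Among complex III genes the small subunits Uqcr11 and Uqcrq fell by 0.54 and 0.40, and Uqcrc1, Uqcrc2 and Uqcrfs1 differed by -0.13, -0.02 and -0.16. Atp5a1 was called at day 7 (-0.38, adjusted p = 0.0466) but lost its call without any 1 of Mock replicates 2 and 4 or of the 4 IL-12TD replicates. Cox4i1 and Cox6a1, general subunits of complex IV, rose by 0.42 and 0.40 (adjusted p = 0.0288 and 0.0271). After a second quantile normalization they differed by 0.19 and 0.20 and were not called. Both calls were also lost without Mock replicate 2 or 3 or IL-12TD replicate 3, that of Cox4i1 without IL-12TD replicate 4 (0.34 to 0.42 over these), and that of Cox6a1 without Mock replicate 4 or IL-12TD replicate 1 (0.28 to 0.41 over these).

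The 2 days share no array, so the calls can be set side by side. Only 5 genes fell on both days: Atp5a1, Atp5g3, Atp5o, Cox8b and Ndufc2. Of these, Atp5a1 lost its day 7 call when any of several single arrays was left out, as given above. Atp5g3 lost its day 7 call without Mock replicate 4 or IL-12TD replicate 4 (-0.36 and -0.37). Cox8b, a dim gene, lost its day 3 call (-0.42, adjusted p = 0.0264) without Mock replicate 1 or 2 or IL-12TD replicate 1, 3 or 4 (-0.32 to -0.40). Another 17 fell at day 3 and were not called at day 7, 24 fell at day 7 and were not called at day 3, and 36 were called on neither. None rose on both days. Ndufs4 fell at day 3, by a call near the threshold, and rose at day 7. A call on a single day does not show that the days differ, so the difference between the days was tested itself. The IL-12TD against Mock difference moved up from day 3 to day 7 in 8 genes and down in 18 (over all genes, 24.1% and 18.4%). A second quantile normalization gave 2 and 35, median centring 4 and 19, and array weights 15 and 29. In the same order, 2581, 4601 and 5582 of all 19938 genes moved up and 2417, 3918 and 4848 down. Among the brightest 1993 genes, 892 moved up and 108 down (median 0.44), while the 89 genes had a median of -0.14.

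Members of complex I took part in both directions. The difference moved up for Ndufs1 by 1.12 (SE 0.20, adjusted p = 0.000175), for Ndufs4 by 0.81 (SE 0.17, adjusted p = 0.00074) and for Ndufv1 by 0.72 (SE 0.18, adjusted p = 0.00326). It moved down for the supernumerary Ndufa6 with a change of -0.92 (SE 0.20, adjusted p = 0.00107) and Ndufb7 with -0.86 (SE 0.23, adjusted p = 0.00546). Counted by role, 2 of 6 core subunits moved up and none down, and 2 of 28 supernumerary subunits moved up and 11 down. Over all genes 24.1% moved up and 18.4% down, and the share moving up was larger among the brightest genes, as given above. The 2 core subunits are thus near the share of genes in general. In complex V the downward moves were Atp5e, the epsilon subunit (-1.08, SE 0.34, adjusted p = 0.0148), Atp5mpl (-1.06, SE 0.24, adjusted p = 0.00154), Atp5k (-0.98, SE 0.26, adjusted p = 0.00499) and Atp5j2 (-0.73). Cox6a1 moved up by 0.59, Sdha by 0.51 and the assembly factor Ndufaf1 by 0.58. After a second quantile normalization Ndufv1, Cox6a1, Sdha and Ndufaf1 kept their sign (0.29, 0.27, 0.07 and 0.19) but not their call. The call of Sdha was also lost without any 1 of Mock replicates 2 and 4 and IL-12TD replicates 2, 3 and 4 of day 3, or Mock replicates 1, 3 and 4 and IL-12TD replicates 1, 2 and 4 of day 7 (0.38 to 0.54). That of Ndufaf1 was lost without Mock replicate 3 or 4 or IL-12TD replicate 3 of day 3, or replicate 1, 3 or 4 of either arm at day 7 (0.43 to 0.61). In the plot of the differences on both days Ndufs1, Ndufv1 and Ndufs7 lie at the left and near 0 at day 7, and most supernumerary genes lie below 0 at day 7.

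**Figure D2:**
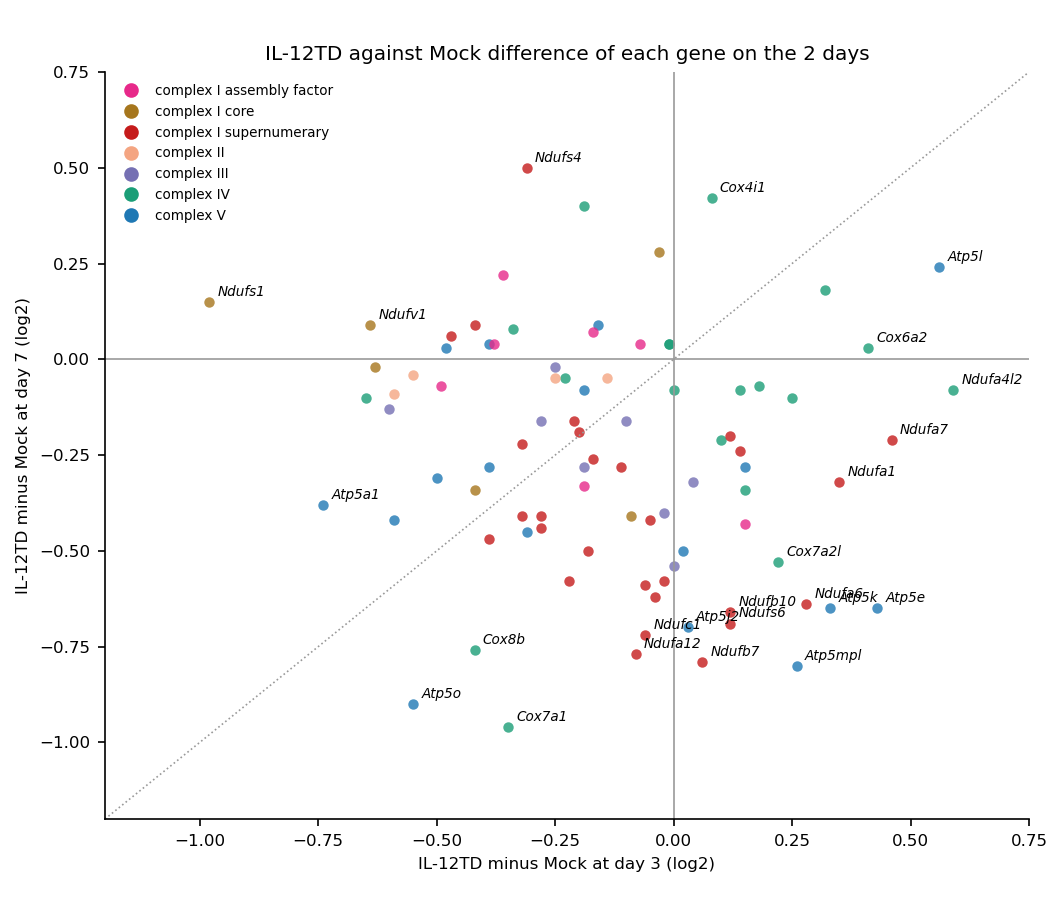
Log2 difference of IL-12TD minus Mock at day 3 (horizontal) and day 7 (vertical) for the 89 genes, coloured by complex and role, with the diagonal dotted. Ndufs1 (-0.98, 0.15) and Ndufv1 (-0.64, 0.09) lie far left of the diagonal and Ndufb7 (0.06, -0.79) and Atp5mpl (0.26, -0.80) far below it; after a second quantile normalization the member median at day 3 turns from -0.16 to 0.03.

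Paralogue sets let members of 1 position in a complex be compared by their own differences. Ndufa4, long counted with complex I but a subunit of complex IV, was 8.71, 8.62, 8.99 and 8.48 in Mock and 7.68, 8.35, 8.12 and 8.07 in IL-12TD tumours at day 3. The groups did not overlap (-0.65, SE 0.16, adjusted p = 0.00214), though a second quantile normalization ended the call (-0.38). Its paralogue Ndufa4l2, known to rise in hypoxia, was 5.22, 5.39, 5.11 and 5.22 in Mock and 5.61, 5.74, 5.92 and 6.02 in IL-12TD tumours. All 4 IL-12TD arrays were higher (0.59, SE 0.14, adjusted p = 0.00134). The probeset of Ndufa4l2 was dim, with a mean of 5.33 against a median of 5.49 over all genes. Another paralogue, AA467197, does not carry a symbol of the rule; its human counterpart is known to be induced in inflammation and to take the place of NDUFA4 in complex IV. It was 6.22, 5.30, 6.05 and 5.45 in Mock and 8.46, 8.44, 8.27 and 8.58 in IL-12TD tumours at day 3 (2.68, SE 0.24, adjusted p = 2.6e-09). At day 7 AA467197 was 5.17, 5.08, 5.19 and 5.33 in Mock and 7.20, 7.52, 7.41 and 7.37 in IL-12TD tumours (2.18, SE 0.24, adjusted p = 9.8e-08). Its groups were apart on both days, while Ndufa4 (-0.10) and Ndufa4l2 (-0.08) were not called at day 7. Leukocyte markers were higher in the same tumours, as given above, and their part in these differences was not tested.

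Cox7a1, the isoform of striated muscle, was 5.30, 5.99, 5.66 and 6.57 in Mock and 4.62, 5.07, 4.94 and 5.04 in IL-12TD tumours at day 7. The groups did not overlap, and this was the largest fall of that comparison (-0.96, SE 0.20, adjusted p = 0.00103). Its general counterpart Cox7a2 was 7.01, 7.54, 7.40 and 8.03 against 7.33, 7.50, 7.44 and 7.38 (-0.08, not called). Cox7a2l, which joins complexes III and IV into supercomplexes, fell by 0.53 at day 7 (SE 0.15, adjusted p = 0.0133). This call was lost without Mock replicate 4 (-0.47) or IL-12TD replicate 4 (-0.46). Of the 2 probesets of Cox7a2l (-0.53 and -0.42) only 1 was called. Cox8b, another muscle isoform, was 5.18, 5.61, 5.45 and 5.42 in Mock and 4.72, 4.59, 4.67 and 4.63 in IL-12TD tumours at day 7. The groups were apart (-0.76, SE 0.15, adjusted p = 0.000469), and general Cox8a differed by 0.04. Of the 2 muscle isoforms Cox8b was dim, with a mean of 5.27 over the arrays, below the median of 5.49 over all genes. Cox7a1 had a mean of 6.03, above that median. In IL-12TD tumours at day 7 Cox7a1 averaged 4.92 and Cox8b 4.65, near values that a probeset can give without transcript. Of 10 skeletal muscle markers 4 were higher and none lower in IL-12TD tumours at day 7 (median 0.29), and their part in the falls of Cox7a1 and Cox8b was not tested. Cox4i2, the isoform tied to low oxygen, was 6.17, 6.02, 5.82 and 6.05 in Mock and 6.33, 6.25, 6.16 and 6.31 in IL-12TD tumours at day 3 and was not called (0.25, adjusted p = 0.0613), though a second quantile normalization gave a call (0.44). Against untreated tumours Cox4i2 was called higher at day 3 (0.30, adjusted p = 0.0247), a call lost without untreated replicate 3 (0.25) or IL-12TD replicate 1 or 4 (0.28 and 0.29) and with the compared groups fitted alone. Cox6a2 and Cox6b2 differed by 0.41 and 0.15 at day 3 and were not called either, nor were Cox6b1 (0.14), Cox8c (0.18) and Cox5b (-0.23).

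**Figure D3:**
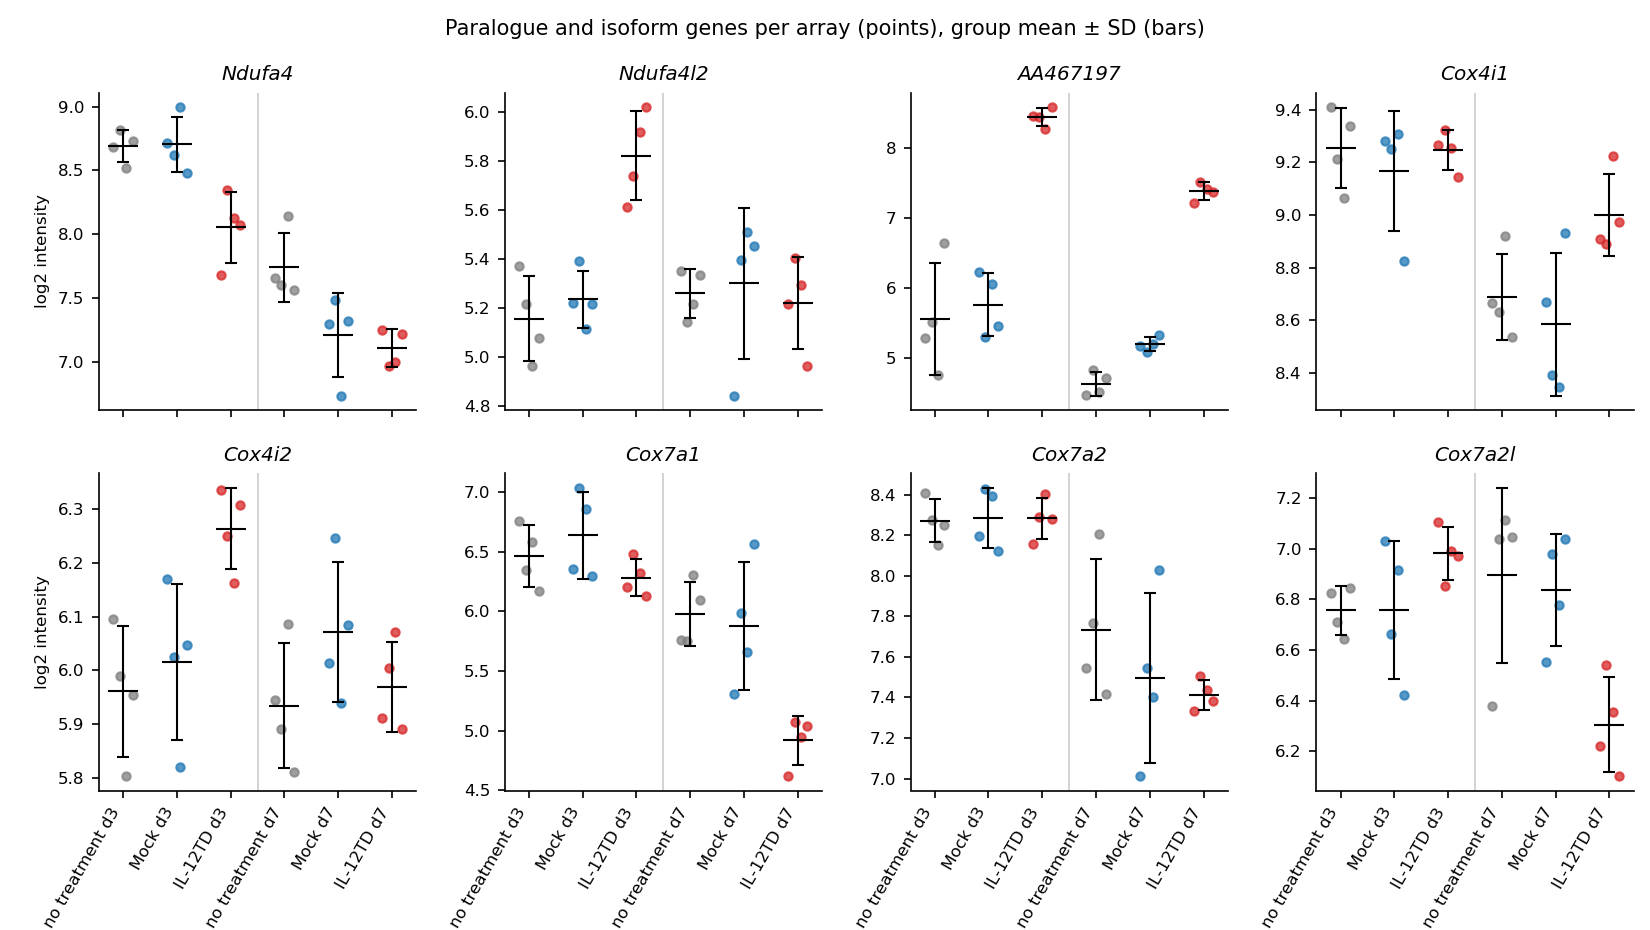
Log2 intensity per array (points, 4 per group) with group mean and SD (bars) for Ndufa4 and its paralogues Ndufa4l2 and AA467197 and for the Cox4 and Cox7a genes; vertical scales differ between panels. Ndufa4 is lower and Ndufa4l2 and AA467197 higher in IL-12TD than in Mock tumours at day 3, where the fall of Ndufa4 is not called after a second quantile normalization, and Cox7a1 is lowest in IL-12TD tumours at day 7.

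Against untreated tumours, which share the IL-12TD arrays with the comparison above, 19 genes fell and 4 rose at day 3 (median -0.17), where 25.8% and 16.1% of all genes were lower and higher. A second quantile normalization gave 8 lower and 10 higher with a median of 0.05, and over all genes 3267 lower and 2398 higher. The 4 that rose in the deposited values were Atp5l (0.69), Ndufa4l2 (0.66), Ndufa6 (0.43) and Cox4i2 (0.30), of which Ndufa6 lost its call without untreated replicate 3 (0.39) or IL-12TD replicate 3 (0.33). Ndufs1 was -0.96, Atp5a1 -0.73, Ndufv1 -0.64 and Ndufa4 -0.63 against untreated tumours. At day 7, 37 fell and 1 rose (median -0.29), where 8.61% and 11.8% of all genes were lower and higher, and 19 of 28 supernumerary subunits of complex I were among those that fell. A second quantile normalization gave 42 lower and 0 higher (median -0.38), with 20 of the 28 supernumerary subunits lower. Atp5o was -1.10, Cox7a1 -1.06, Ndufb7 -0.91 and Cox8b -0.90. Untreated replicate 3 stood apart at day 7: its mean over the 89 genes was 8.28, against 7.86, 7.98 and 7.93 in its fellows. Without it 23 of the 89 genes were called, 22 of them lower, and over all genes 1627 were called lower and 2077 higher. Mock and untreated tumours gave no called gene on either day by limma, among the 89 or among all genes (0% higher and 0% lower on both days). At an unadjusted p under 0.05 there were 0 of the 89 at day 3 and 5 at day 7, with medians of 0.00 and -0.08. Over all genes 329 at day 3 and 2767 at day 7 were under that p, and by every alternative run none of the 89 was called.

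Tumours of day 7 were then compared with those of day 3 within each arm. In untreated tumours 62 of the 89 genes were lower and 2 higher at day 7 than at day 3 (median -0.54), where 24.2% and 11.3% of all genes were. In Mock tumours 64 were lower and 4 higher (median -0.60; all genes 27.1% and 23.8%). In IL-12TD tumours 73 were lower and 1 higher (median -0.71; all genes 21.6% and 20.2%). The 1993 brightest genes had medians of -0.44, -0.58 and -0.21 in the 3 arms. A second quantile normalization left 31 lower and 3 higher in untreated tumours (median -0.27), 34 and 7 in Mock (median -0.24) and 73 and 1 in IL-12TD tumours (median -0.72). Over all 19938 genes it called 2894 lower and 2484 higher in untreated, 3808 and 3453 in Mock and 4374 and 3902 in IL-12TD tumours. The medians of the chain genes for IL-12TD against Mock and against untreated tumours at day 7 were -0.39 and -0.38 after it. In the deposited values 51 genes were lower at day 7 in all 3 arms, Cox7b2 was higher in all 3, and Cox8c, Ndufaf5 and Ndufaf6 were called in none. All 6 core subunits of complex I fell in untreated and in Mock tumours and 4 in IL-12TD tumours. Of the 10 general subunits of complex IV all fell in untreated and in Mock tumours and 7 in IL-12TD tumours. Supernumerary subunits of complex I fell in 21, 20 and 27 of 28 cases. Among the restricted isoforms of complex IV none fell in untreated tumours, 1 in Mock and 4 in IL-12TD tumours. After the second quantile normalization 4 core subunits of complex I fell in each arm, 6, 9 and 27 supernumerary subunits, and 5, 3 and 6 general subunits of complex IV.

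Other gene groups moved between the days as well. Pan-leukocyte markers were lower at day 7 for 7 of 10 genes in untreated tumours (median -1.06; array means of 6.21 to 7.85 at day 3 and 5.56 to 6.35 at day 7), for 4 in Mock (median -0.42) and for 2 in IL-12TD tumours, with 1 higher (median -0.32). Macrophage and monocyte markers were lower for 4, 3 and 3 of 6 genes. Proliferation markers were lower for 6 of 7 genes in untreated tumours, with 1 higher (median -0.60), for 6 in Mock (median -1.02) and for 2 in IL-12TD tumours, with 2 higher. Melanocyte markers were lower for 4, 4 and 0 of 11 genes and higher for 0, 1 and 2. Constitutive proteasome subunits were lower for 14 of 14 genes in all 3 arms (medians -1.04, -1.17 and -0.84), and mitochondrial ribosomal proteins for 60, 60 and 56 of 77. The second quantile normalization left 13, 13 and 14 proteasome subunits, 29, 39 and 60 mitochondrial ribosomal proteins and, among pan-leukocyte markers, 7, 0 and 2 genes lower. The part of these markers in the day differences of the respiratory chain genes was not tested.

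**Figure D4:**
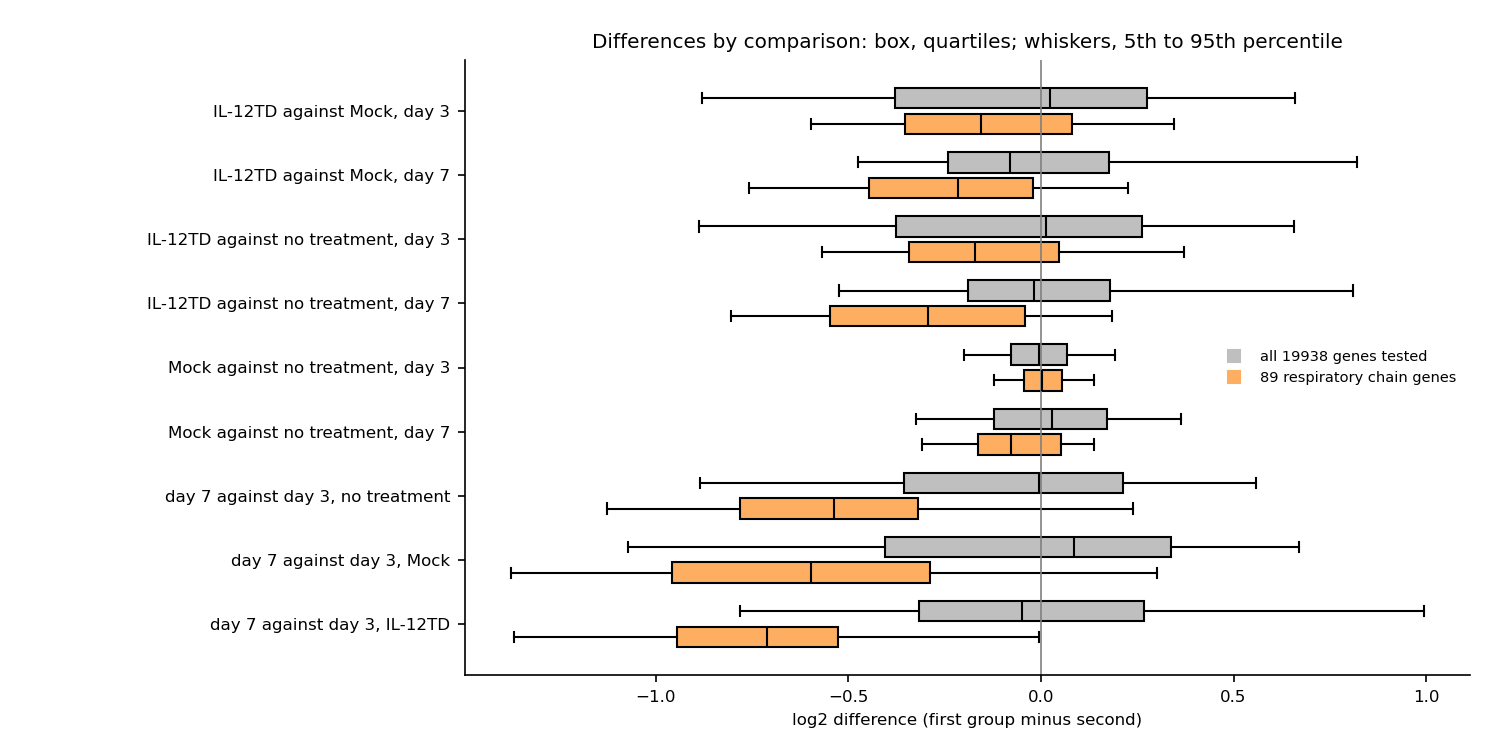
Log2 difference (first group minus second) in 9 comparisons for all 19938 genes (grey) and the 89 respiratory chain genes (orange); boxes give quartiles with the median and whiskers the 5th to 95th percentile. In the deposited values the 89 genes have medians of -0.54, -0.60 and -0.71 in the day comparisons and lie around 0 between Mock and untreated tumours at day 3; after a second quantile normalization the day medians are -0.27, -0.24 and -0.72, those of the IL-12TD comparisons at day 7 -0.39 and -0.38, and those at day 3 turn to 0.03 and 0.05.

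Ndufv1 was 8.94, 9.12, 9.02 and 8.98 in Mock tumours at day 3 and 7.43, 7.54, 7.24 and 7.78 at day 7. No arrays overlapped (-1.52, SE 0.13, adjusted p = 4.9e-09), and it fell by 1.17 in untreated and by 0.79 in IL-12TD tumours. Ndufs1 fell by 0.70 in untreated and 1.17 in Mock tumours; its IL-12TD arrays were 7.13, 6.99, 6.66 and 6.61 at day 3 and 6.88, 6.51, 6.84 and 6.97 at day 7. These overlapped (-0.05, SE 0.14, adjusted p = 0.811). Ndufb6, a supernumerary subunit, fell by 1.32, 1.49 and 1.39 in untreated, Mock and IL-12TD tumours. Atp5e, of the F1 head, was 7.74, 8.14, 8.49 and 8.17 in IL-12TD tumours at day 3 and 6.17, 7.09, 5.77 and 6.05 at day 7. The ranges were apart (-1.87, SE 0.24, adjusted p = 1.05e-06), a 3.65-fold fall, against -0.79 in Mock tumours and -0.59, not called, in untreated ones. In the order untreated, Mock and IL-12TD, Atp5md fell by 1.05, 1.16 and 1.68, Ndufa2 by 1.16, 1.29 and 1.60 and Atp5o by 0.83, 1.14 and 1.49. Cox7b2 was 3.39, 3.62, 3.41 and 3.62 in Mock tumours at day 3 and 4.49, 4.40, 4.29 and 4.40 at day 7. These dim values did not overlap (0.88, SE 0.16, adjusted p = 5.8e-05), and it rose by 0.52 in untreated and 0.57 in IL-12TD tumours. Cox6a1 fell by 0.78 in untreated and 0.60 in Mock tumours, and was 10.96, 10.94, 10.86 and 10.84 at day 3 and 11.03, 10.68, 11.07 and 10.81 at day 7 in IL-12TD tumours (-0.01, not called). Ndufv3, a flavoprotein subunit of complex I, rose by 0.62 in untreated and 0.69 in Mock tumours and differed by 0.11 in IL-12TD tumours.

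Averaged over a complex in the deposited values, all day 3 arrays lay above all day 7 arrays in complexes I, II and V, by narrow margins. The lowest day 3 and highest day 7 arrays were 7.88 and 7.83 in complex I, 8.74 and 8.72 in complex II and 9.69 and 9.65 in complex V. The mean of complex I was 8.12 ± 0.03 (SD, n = 4) in untreated, 8.12 ± 0.09 in Mock and 7.95 ± 0.06 in IL-12TD tumours at day 3. At day 7 it was 7.57 ± 0.18, 7.48 ± 0.19 and 7.20 ± 0.04. This mean includes the 7 assembly factors. Arrays of the core subunits overlapped at day 7, at 8.11 to 8.32 in IL-12TD and 8.11 to 8.44 in Mock tumours. Those of the supernumerary subunits did not, at 7.34 to 7.45 and 7.51 to 8.05. Complex II averaged 9.25 ± 0.10 in Mock and 8.87 ± 0.10 in IL-12TD tumours at day 3, and 8.38 ± 0.13 and 8.32 ± 0.08 at day 7, when the arrays overlapped. Complex V averaged 9.94 ± 0.10 and 9.79 ± 0.07 at day 3 and 9.24 ± 0.23 and 8.89 ± 0.08 at day 7. Complex IV, with its dim isoforms, had these averages: 7.80 ± 0.10 and 7.81 ± 0.07 at day 3 and 7.54 ± 0.12 and 7.43 ± 0.06 at day 7 in Mock and IL-12TD tumours. The spread within untreated and Mock tumours at day 7 exceeded that of IL-12TD tumours in each complex. No test was made on these averages, and they were not made after a second quantile normalization. That step took the day medians of the 89 genes to -0.27 in untreated, -0.24 in Mock and -0.72 in IL-12TD tumours.

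**Figure D5:**
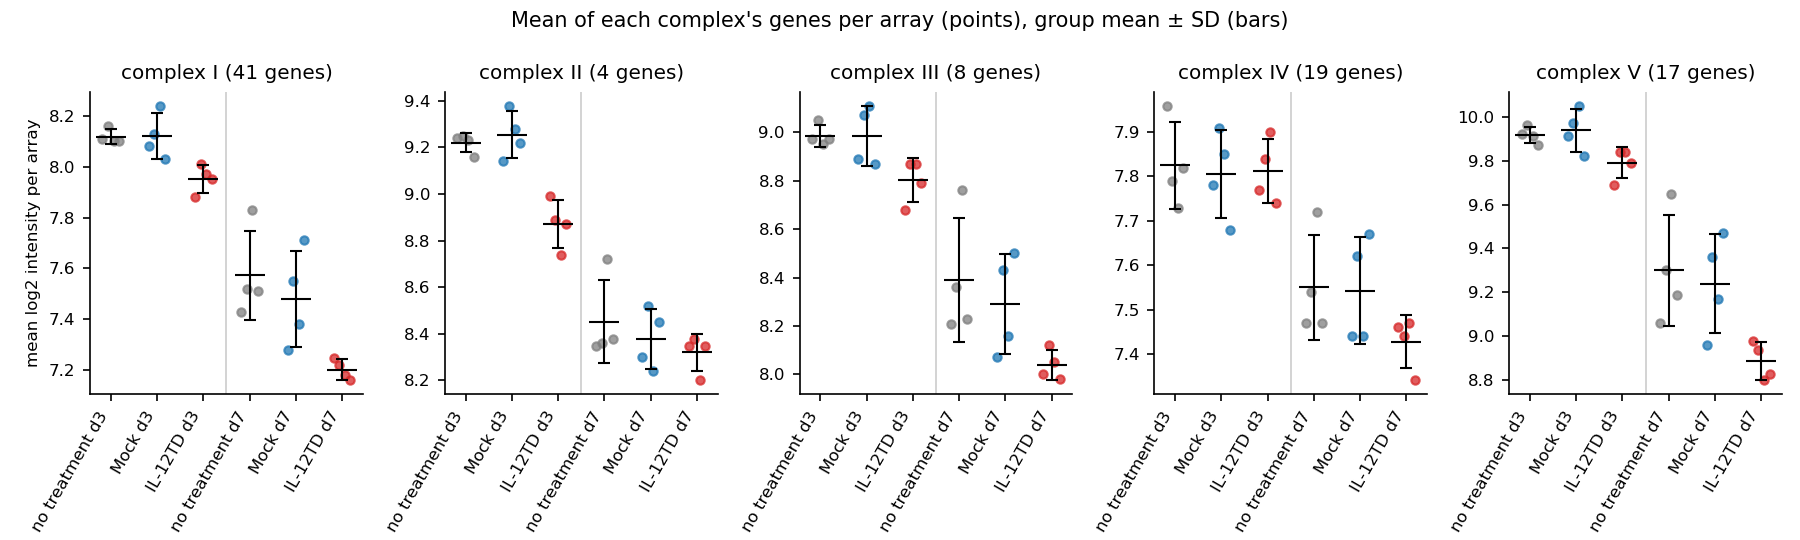
Mean log2 intensity per array over the genes of each complex (points, 4 per group), with group mean and SD (bars); day 3 groups are left and day 7 groups right of the grey line, and vertical scales differ. In IL-12TD tumours complex II sits below Mock at day 3 (8.74 to 8.99 against 9.14 to 9.38) in the deposited values. The complex I mean, which includes assembly factors, sits below Mock at day 7 (7.16 to 7.25 against 7.28 to 7.71). Its core subunits alone overlap there (8.11 to 8.32 against 8.11 to 8.44). A second quantile normalization turned the median of all 89 genes at day 3 to 0.03.

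Other mitochondrial genes were read from lists outside the rule, beside the all-gene shares of 25.9% lower and 17.3% higher at day 3 and 8.83% and 12.9% at day 7. In IL-12TD against Mock tumours at day 3, 14 of 16 genes of the tricarboxylic acid cycle fell and none rose (median -0.67), among them Cs, citrate synthase (-0.68, SE 0.15, adjusted p = 0.000682). At day 7, 2 of 16 fell and none rose. Of 17 genes of electron carriers and ubiquinone synthesis 11 fell at day 3 and 3 rose at day 7; Cyc1, the cytochrome c1 of complex III, fell by 0.99 at day 3 (SE 0.14, adjusted p = 2.09e-06), and Cycs, cytochrome c, differed by -0.02. Of 39 other assembly factors 20 fell and 2 rose at day 3, and 3 fell and 3 rose at day 7. Of 16 regulators of mitochondrial biogenesis 11 fell and none rose at day 3 and 1 fell and 2 rose at day 7. Tfam, which packages and transcribes mitochondrial DNA, fell by 0.65 at day 3 (adjusted p = 0.00294) and differed by 0.32 at day 7, not called. Mitochondrial ribosomal proteins fell in 23 of 77 cases at day 3 (29.9%, near the share of all genes) and 13 at day 7 (16.9%), with 1 higher each time. Cytosolic ribosomal proteins fell in 2 of 59 cases at day 3, with 5 higher, and in 30 of 59 at day 7, with none higher (median -0.38), beside the falls of the supernumerary and membrane-part genes. Constitutive proteasome subunits rose in 2 of 14 cases at day 3 and 6 at day 7, with none lower.

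The second quantile normalization, which called 3178 of all genes lower and 2408 higher at day 3 and 2574 and 2289 at day 7, changed several of these counts. At day 3 it left 11 genes of the tricarboxylic acid cycle lower (median -0.47), 5 of the electron carriers and ubiquinone synthesis (median -0.14), 10 other assembly factors with 4 higher (median -0.10) and 6 regulators of biogenesis (median -0.33). Mitochondrial ribosomal proteins were then 5 lower and 7 higher at day 3, where their median turned from -0.22 to 0.07, and 27 lower and 1 higher at day 7. Cytosolic ribosomal proteins were 0 lower and 7 higher at day 3 and 45 lower at day 7 (median -0.58). At day 7 it gave 5 lower genes of the tricarboxylic acid cycle, 6 lower assembly factors with 3 higher, 3 lower regulators with 2 higher, 2 higher and 1 lower gene of the carriers, and 4 higher proteasome subunits, which were 4 higher at day 3 too.

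Of 7 genes whose products are known to act on the chain in inflammation or hypoxia, 3 rose and 1 fell at day 3 in IL-12TD against Mock tumours, and 5 rose and 2 fell at day 7. Nos2, the inducible nitric oxide synthase, was 5.89, 4.94, 5.60 and 5.20 in Mock and 8.83, 8.70, 7.53 and 8.47 in IL-12TD tumours at day 3. The groups were apart (2.97, SE 0.27, adjusted p = 4.41e-09), and they were so again at day 7 (2.13, adjusted p = 1.4e-06). Acod1, which makes itaconate, an inhibitor of complex II, rose by 3.49 at day 3 and 1.92 at day 7 (adjusted p = 5.18e-09 and 8.07e-05). Higd1a, a small factor of complexes III and IV known from hypoxia, differed by 0.31 at day 3, not called, and fell by 0.76 at day 7 (SE 0.18, adjusted p = 0.00304). Proliferation markers were lower in IL-12TD tumours for 7 of 7 genes at day 3 (median -1.44) and 5 of 7 at day 7 (median -0.56), and their part in the differences of the respiratory chain genes was not tested. Neutrophil markers were higher for 6 of 6 genes at day 3 and 1 of 6 at day 7, and this too was not tested.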

How the data were processed

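Values are the deposited log2 intensities of 35556 probesets on 24 whole-transcript Affymetrix arrays, made by the authors with RMA per the submitters' processing notes; its settings and any batch step are not given in the sources used here. No values were transformed again for the main results. Probesets listing exactly 1 gene in the platform annotation (21789) were reduced to the brightest per gene, giving 19938 genes; 12146 probesets listed none and 1621 several. Of 21789, 21698 took current symbols by gene ID from RefSeq and 91 kept the platform's. limma 3.58.1 (R 4.3.3; lmFit and eBayes, two-sided) was fitted to 6 group means, with Benjamini-Hochberg adjustment over all genes and a threshold of 0.05. The code was tested on simulated data. The labels call the 4 samples of a group biological replicates without naming animals, so p-values measure the spread between these samples. The number of arrays limits the precision. The members, gene lists and tests were chosen with earlier results of these data known. Named genes are catalytic or defining subunits, paralogue sets, and in each comparison the 5 largest called rises and falls; further genes and the printed promoters were chosen after their values were seen. The motifs were shortened from longer forms planned at the start. Alternatives were a second quantile normalization, median centring, omission of dim genes, a trended prior, array weights, the compared groups only, a replicate block, other uses of probesets, and omission of each array. Of the lists, T cell markers were higher in IL-12TD than Mock tumours for 6 of 6 genes on both days, macrophage markers for 2 of 6 on both, and adipocyte markers for 3 of 7 at day 3 and none at day 7.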

Additional observations from a re-analysis of the deposited data

Results flagged for a closer look

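Within groups, 30 sets of 4 values (5 complexes in 6 groups) were screened for a value far from the others, and chance marks about 1 in 20. The mean of complex II was 8.72 in replicate 3 of untreated tumours at day 7, against 8.35, 8.36 and 8.38 in its fellows. In IL-12TD tumours at day 7 it was 8.20 in replicate 3, against 8.35, 8.38 and 8.35.

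The IL-12TD against Mock difference changed between day 3 and day 7, by a test of that change, in 26 of the 89 genes. Of these 8 moved up and 18 down, where 24.1% and 18.4% of all genes did. The change was 1.12 for Ndufs1, 0.81 for Ndufs4, 0.72 for Ndufv1, 0.59 for Cox6a1, 0.58 for Ndufaf1 and 0.51 for Sdha, all upward. It was -1.08 for Atp5e, -1.06 for Atp5mpl, -0.98 for Atp5k, -0.92 for Ndufa6, -0.86 for Ndufb7, -0.76 for Cox7a2l and -0.67 for Ndufa4l2. After a second quantile normalization Ndufv1, Cox6a1, Ndufaf1 and Sdha were not called, as given above.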

How the results depend on the processing

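A second quantile normalization lowered the count of chain genes called between days to 34 in untreated and 41 in Mock tumours, and array weights raised that of the change between days to 44. Median centring moved the count of calls by less than 1.5 times in every comparison. Leaving out single arrays gave 19 to 38 called genes for IL-12TD against Mock at day 7 and 23 to 42 for IL-12TD against untreated at day 7. Over all genes the fits that gave 19 and 38 called 2110 and 3181 higher and 1224 and 2344 lower. Those that gave 23 and 42 called 2077 and 2541 of all genes higher and 1627 and 1669 lower. For the other comparisons the count of chain genes stayed within 1.5 times of the main count. The replicate numbers were not shown to pair the samples: deviations of same-numbered arrays correlated from -0.277 to 0.524 over 60 pairs, with 18 above 0.1. With the replicate number as a block, 27 genes were called at day 3 and 33 at day 7 in IL-12TD against Mock, and Cox5a at day 3, Atp5a1 at day 7 and the change of Ndufaf1 lost their calls. No named result reversed its direction while called. Where a cause is not named, the cause was not tested. Over all genes the IL-12TD against Mock calls at day 7 were 2573 higher and 1760 lower, and 2289 and 2574 after a second quantile normalization; against untreated tumours they were 2346 and 1716, 2035 and 2443 after it, and 1808 and 2790 after median centring. Dim isoforms such as Cox7b2, Cox8c, Cox8b and Ndufa4l2 are limited by low signal over background.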

Other observations

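Probesets that name a chain gene beside a second gene belong to no comparison above. The brightest for Cox7c, a general subunit of complex IV listed with Gm12338, averaged 11.77 ± 0.06 in Mock and 11.66 ± 0.05 in IL-12TD tumours at day 3, and 11.44 ± 0.09 and 11.40 ± 0.16 at day 7 (SD, n = 4). The brightest for Ndufb4 with Ndufb4b, a supernumerary subunit of complex I, averaged 10.98 ± 0.13 and 10.63 ± 0.18 at day 3, and 10.06 ± 0.40 and 9.63 ± 0.15 at day 7.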
